A study of Mus musculus with 2 samples.

Results

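The genes described here are the inhibitors of cyclin-dependent kinases (CDKs) of the Cdkn1 and Cdkn2 families and the stress genes of the Gadd45 family, 10 genes in all. They were taken as the probes whose platform annotation gives exactly 1 gene symbol from these families. There were 10 such probes, 1 for each gene, among 21919 probes that name 14442 genes, and 9 of them had a value on both arrays. The probe of Cdkn1c had a value on neither array and that gene was not analysed here. The set was chosen because Cdkn2b and Cdkn1a lie far on the negative side of the ratio, so the values of these genes are a description and carry no test.

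Gene expression was compared between effector CD8+ T cells after 2 rounds of stimulation in culture and the same kind of cells after 1 round. The cells came from the pmel mouse, a transgenic strain whose CD8+ T cells recognise gp100, a protein of melanocytes, through 1 T cell receptor. Total RNA of the cells after 2 stimulations (channel 2) and of the cells after 1 stimulation (channel 1) was hybridised together on each of 2 two-colour microarrays, the second labelled a repeat of the first. Both arrays had the same channel order. A dye effect on a probe therefore cannot be told apart from a difference between the stages, even where the arrays agree. Whether a new culture was used for the repeat, the number and age of the mice and the stimulating agent are not given in the labels, so the spread between the arrays may be technical.

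CDKs drive a cell through its division cycle once they bind a cyclin. The proteins of the Cdkn2 family bind CDK4 and CDK6 and keep the D-type cyclins from activating them, while those of the Cdkn1 family act on a wider range of cyclin and CDK pairs. Gadd45 proteins are small stress-induced proteins that bind the kinase MAP3K4 and turn on the p38 and JNK pathways, and in T helper cells Gadd45b and Gadd45g are known for raising interferon gamma production.

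Each value is the deposited log ratio of the 2 channels, taken as base 2. The labels do not name the numerator of the ratio. Titles and channel numbers alike start with the cells after 1 stimulation. A ratio of 1 stimulation over 2 is assumed from the titles, but neither titles nor channel numbers settle it. Read so, negative values mean more of the RNA after 2 stimulations and positive values more of it after 1 stimulation. With the opposite order the sides swap, and results are therefore given as the negative and the positive side. Over the 21427 probes with both values the arrays had medians of 0.01 and 0.02, and the standard deviation of their difference was 0.422. limma's moderated test passed 0 of these probes (0.0%) at an adjusted p of 0.05, with 3186 at an unadjusted p under 0.05. Its robust form passed 0, and an unmoderated test 241, all with identical values on both arrays. Genes are therefore described by size. A value was counted as 2-fold when both arrays put it at least 1 from 0 on the log2 scale with the same sign. In such bulk samples less RNA per cell and fewer cells with the RNA cannot be told apart.

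Of the 9 measured genes, 3 were at least 2-fold on both arrays, all on the negative side: Cdkn2b, Cdkn1a and Gadd45g. Over all probes 0.579% met that rule on the negative side and 0.275% on the positive side, but the genes were chosen on this ratio and nothing is read from the comparison. Each of the 3 families had 1 member in this position, and its other measured members were under 2-fold on at least 1 array. Gadd45b lay farthest on the positive side. By sign alone, 4 genes were negative on both arrays, 3 were positive on both, and 2 changed sign between the arrays. The negative share was thus 44.4%, beside 33.6% of all 14150 genes, and the positive share 33.3%, beside 29.6%. Because of the way the set was chosen, nothing is read from these shares either.

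**Figure D1:**
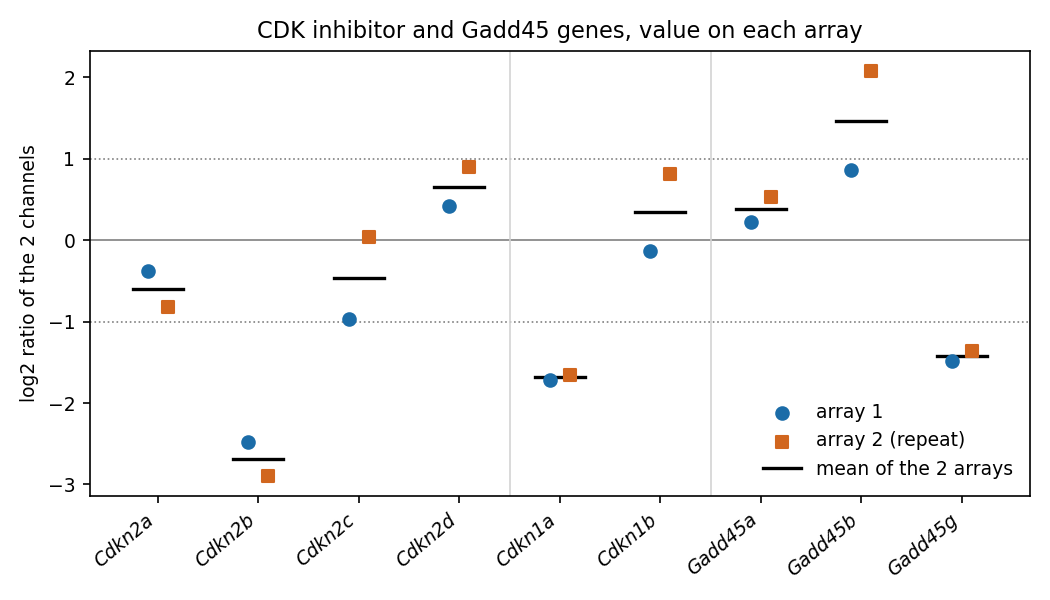
Log2 ratio of the 2 channels (vertical axis) for each measured gene of the Cdkn2, Cdkn1 and Gadd45 families, with array 1 as circles, array 2 as squares and the mean as a bar. Dotted lines mark 2-fold, and Cdkn2b, Cdkn1a and Gadd45g lie below the lower line on both arrays while Gadd45b passes the upper line on array 2 only.

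In the Cdkn2 family, Cdkn2b stood apart. It encodes p15INK4b, an inhibitor known for its induction by TGF-beta. Its log2 ratio was -2.48 on array 1 and -2.89 on array 2, a mean of -2.69 ± 0.29 (SD, n = 2), which is 6.43-fold. Both arrays placed it far on the negative side, and by mean it ranked 3 from the negative end of 14150 genes. If the values are natural logs the same mean is 14.7-fold.

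Cdkn2a, which encodes the inhibitor p16INK4a and, in another reading frame, the p53-stabilising protein ARF, lies near Cdkn2b on mouse chromosome 4, 11669 bases away with 1 annotated gene between them in the RefSeq annotation (GRCm38.p6). Its log2 ratio was -0.38 on array 1 and -0.82 on array 2, a mean of -0.60 ± 0.31 (SD, n = 2). It was on the same side as Cdkn2b on both arrays but under 2-fold on each. The log ratio of Cdkn2a was above that of Cdkn2b by 2.10 on array 1 and by 2.07 on array 2, so the gap between these genes was almost the same on the 2 arrays. Which of the Cdkn2a transcripts its probe reads was not examined. Mtap, the nearest measured gene on the other side of Cdkn2a, had -0.43 and -0.81 on the 2 arrays, close to the values of Cdkn2a. Beyond Cdkn2b the nearest measured gene was Elavl2, with 0.65 and -0.37.

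The other Cdkn2 genes were smaller in value. Cdkn2c encodes p18INK4c, an inhibitor that restrains lymphocyte division in mice. It read -0.97 on array 1 and 0.04 on array 2, and its SD of 0.71 exceeded the size of its mean of -0.47, so no side can be given for it. Only 2.63% of all probes differed more between the arrays. Cdkn2d, the gene of p19INK4d, was positive on both arrays with 0.42 and 0.90, a mean of 0.66 ± 0.34 (SD, n = 2). The log ratios of the 4 Cdkn2 genes thus spanned 2.90 on array 1 and 3.79 on array 2.

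In the Cdkn1 family, Cdkn1a agreed best between the arrays of all 9 genes. It encodes p21CIP1, an inhibitor of CDK2 complexes that also binds the replication clamp PCNA and is a classical target of p53. Its log2 ratio was -1.72 on array 1 and -1.65 on array 2, a mean of -1.69 ± 0.05 (SD, n = 2), which is 3.22-fold. It ranked 21 from the negative end of the 14150 genes, and 83.1% of all probes differed more between the arrays. Cdkn1b encodes p27KIP1, the inhibitor of resting T cells that is degraded when they enter the cycle. It read -0.13 on array 1 and 0.82 on array 2, and its SD of 0.67 exceeded its mean of 0.34. The side of Cdkn1b therefore rests on array 2 alone. The log ratio of Cdkn1b was above that of Cdkn1a by 1.59 on array 1 and 2.47 on array 2.

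The Gadd45 family held genes on both sides. Gadd45g was negative, with -1.48 on array 1 and -1.36 on array 2, a mean of -1.42 ± 0.08 (SD, n = 2) or 2.68-fold. Gadd45b was positive, with 0.86 on array 1 and 2.08 on array 2, a mean of 1.47 ± 0.86 (SD, n = 2). It missed the 2-fold rule on array 1 and was 4.23-fold on array 2, and only 1.32% of all probes differed more between the arrays. By mean it ranked 28 from the positive end.

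Gadd45a, the family member that p53 is known to induce, had 0.23 and 0.53, a mean of 0.38 ± 0.21 (SD, n = 2), and was under 2-fold on both arrays. The log ratio of Gadd45b was above that of Gadd45g by 2.34 on array 1 and by 3.44 on array 2. For Gadd45a the gap to Gadd45g was 1.71 and 1.89. All 3 Gadd45 genes read higher on array 2 than on array 1, as did 7 of the 9 genes in all. Over all genes the medians were -0.02 on array 1 and -0.01 on array 2. The share of all genes that read higher on array 2 was not counted, so nothing is read from these counts.

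**Figure D2:**
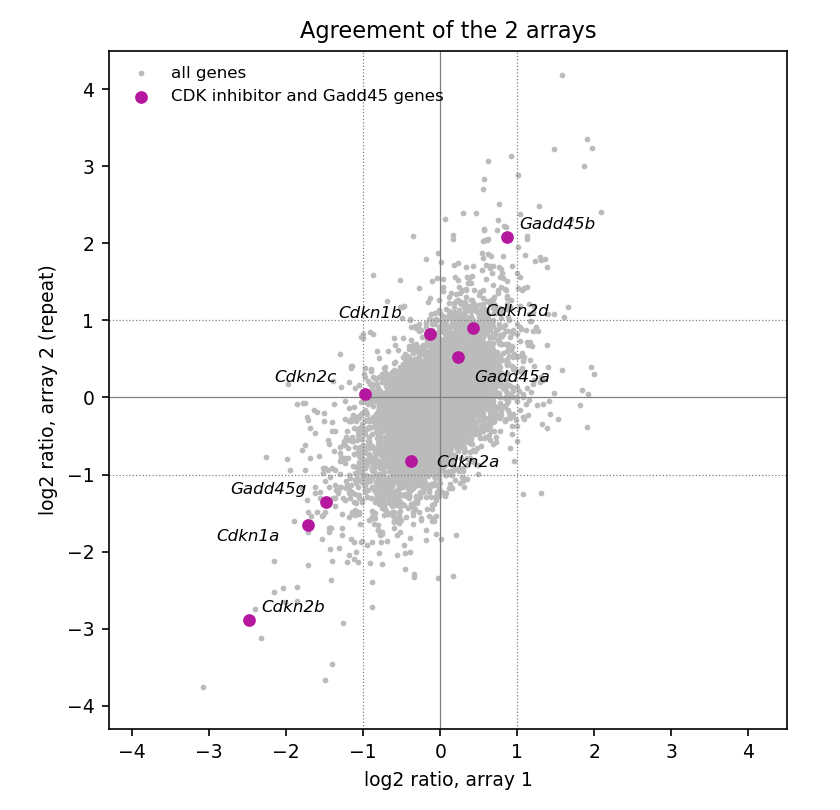
Log2 ratio on array 1 (horizontal axis) against array 2 (vertical axis) for 14150 genes in grey, with the 9 CDK inhibitor and Gadd45 genes in colour and 2-fold marked by dotted lines. Cdkn2b, Cdkn1a and Gadd45g lie in the lower left corner outside the main cloud, Gadd45b in the upper right with a much larger value on array 2, and Cdkn1b and Cdkn2c in quadrants where the arrays differ in sign.

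By the smaller of the 2 array values, Gadd45g (1.36) and Cdkn1a (1.65) were the genes just inside the 2-fold rule, and Gadd45b (0.86) and Cdkn2d (0.42) those just outside it. Reading only array 2 adds Gadd45b to the 2-fold genes, and so do quantile normalization, natural logs and a 1.5-fold rule. Each gene rests on 1 probe, so no second probe was at hand. There were 12 probes within 2 places of the probes of Cdkn2b, Cdkn1a and Gadd45g in probe number. Of these, 1 was at least 2-fold on both arrays, against 0.854% of all probes on either side of the ratio. It was the probe of Eif2ak4 near Cdkn2b, with -1.56 and -1.23. Directly beside Cdkn2b, the probe of Map3k2 read -0.85 and -0.71 and that of Map3k3 0.34 and 0.86. Near Gadd45g, the probe of Aatk read -1.46 and -0.94. Whether such closeness on the platform affects these values was not tested.

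The genes whose pair of values was most like each leading gene, by Euclidean distance over the 2 arrays, differed between them. Nearest to Cdkn2b were the granzyme gene Gzmb (-2.41 and -2.75), the cytokine feedback inhibitor Socs2 (-2.33 and -3.12) and Gzma (-2.16 and -2.53). Nearest to Cdkn1a were Cenps, a kinetochore and DNA repair gene (-1.73 and -1.62), Mlf1 (-1.71 and -1.74) and the replication factor gene Rfc3 (-1.68 and -1.54). For Gadd45g they were Phlda3, an inhibitor of AKT and a p53 target (-1.56 and -1.30), the one-carbon enzyme gene Mthfd1 (-1.39 and -1.30) and Rrm2, a ribonucleotide reductase subunit (-1.37 and -1.31). For Gadd45b they were the acetyl-CoA synthetase gene Acss1 (0.83 and 2.10), the costimulatory receptor gene Cd27 (0.85 and 2.21) and Acp5, a phosphatase gene (0.74 and 2.17). Likeness over 2 arrays says only that the numbers are close.

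The promoters of the leading genes are printed because these genes separate within their families. RefSeq windows (GRCm38.p6), 250 bases before to 50 after each start, were found for 9 of the 10 genes, with 12 windows in all. Letter runs were searched on both strands, and positions count from 1 at the start base, with -1 just before it. The shares given are those of all 32851 windows in the table. The GC box GGGCGG was held by 35.7%, the run CCAAT by 37.4% and the TATA box TATAAA by 13.6%. CAGACA, which holds the letters of a SMAD site, was held by 21.0%, the E-box CACGTG by 7.15%, and CATGTC from the core of a p53 site by 10.1%. The E2F-like runs were rarer, with 0.514% for TTTGGCGC, 0.323% for TTTCGCGC and 1.07% for TTTCCCGC. The cyclic AMP response element TGACGTCA (1.79%) and the p53 half-site consensus (8.36%) were added after the sequences were seen. CATGTC can lie inside the p53 half-site and overlaps it in Cdkn1a. A match is a description of letters, not a site in use.

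The window before the start of Cdkn2b lies at chr4:89311033-89311282 on the minus strand and held TGACGTCA at -46 to -39, printed in capitals. A GC box followed past the start, at 5 to 10.
Cdkn2b: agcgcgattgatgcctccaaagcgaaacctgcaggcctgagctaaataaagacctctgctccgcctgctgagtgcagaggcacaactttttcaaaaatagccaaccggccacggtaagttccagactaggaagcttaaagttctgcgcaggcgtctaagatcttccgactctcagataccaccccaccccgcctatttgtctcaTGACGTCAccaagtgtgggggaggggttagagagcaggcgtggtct

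For Cdkn1a the annotation gives 2 starts on the plus strand of chromosome 17. The bases before the downstream start, chr17:29093519-29093768, held GC boxes at -104 to -99 and -46 to -41 and the reverse complement of CAGACA at -136 to -131, all in capitals below. Near the upstream start, at chr17:29090908-29090967, lies an exact match to the p53 half-site consensus, in capitals in its own line. It begins 2841 bases before the downstream start, and 9 of the 10 letters that follow it fit a second half-site. Other exact half-site matches lay at -73 to -64 of the same window, at -102 to -93 in Cdkn2d and at -40 to -31 in Gadd45a.
Cdkn1a, downstream start: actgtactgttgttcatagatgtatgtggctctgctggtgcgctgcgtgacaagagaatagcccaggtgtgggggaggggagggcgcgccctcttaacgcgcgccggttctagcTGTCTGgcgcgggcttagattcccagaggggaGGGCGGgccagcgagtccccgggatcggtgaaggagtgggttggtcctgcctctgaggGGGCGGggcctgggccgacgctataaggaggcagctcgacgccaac
Cdkn1a, p53 half-site: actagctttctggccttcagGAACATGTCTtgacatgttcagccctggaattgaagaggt

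The windows of Gadd45g (chr13:51846425-51846674) and Gadd45b (chr10:80929841-80930090), both on the plus strand, can be set side by side because the 2 genes lay on opposite sides of the ratio. Capitals mark every searched run. Both held the E-box CACGTG, the run CCAAT and the TATA box TATAAA, which 0.247% of all windows held together. These runs were not planned as a set, so that share is a description only. TATAAA lay at -27 to -22 in Gadd45g and at -46 to -41 in Gadd45b. Gadd45b also held a second CCAAT and, on the other strand, a GC box at -158 to -153, which the Gadd45g window lacked.
Gadd45g: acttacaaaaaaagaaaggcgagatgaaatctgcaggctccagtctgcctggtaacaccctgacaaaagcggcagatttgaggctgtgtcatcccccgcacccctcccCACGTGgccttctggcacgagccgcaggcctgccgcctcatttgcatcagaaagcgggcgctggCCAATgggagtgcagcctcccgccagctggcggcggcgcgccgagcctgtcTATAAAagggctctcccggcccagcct
Gadd45b: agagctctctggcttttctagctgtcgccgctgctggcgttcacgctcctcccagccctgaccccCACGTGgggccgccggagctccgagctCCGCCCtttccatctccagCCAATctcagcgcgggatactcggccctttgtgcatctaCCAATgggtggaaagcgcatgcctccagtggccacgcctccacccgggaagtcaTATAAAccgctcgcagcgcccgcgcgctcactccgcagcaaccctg

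CDKs, cyclins and the enzymes that switch CDKs on and off were read as 1 list, which also holds the CDC25 phosphatase genes, Wee1 and the CDK-activating kinase genes. On both arrays 12 of its 18 measured genes were negative and 1 was positive, and the median log2 ratio was -0.42, against 33.6% negative, 29.6% positive and a median of -0.02 over all 14150 genes. At least 2-fold on both arrays were 2 of them, both negative, where 0.721% of all genes were negative and 0.233% positive by that rule. These were Ccna2, the cyclin of DNA synthesis (-1.52 and -1.53), and the mitotic cyclin gene Ccnb2 (-1.62 and -1.16). Ccne1, which activates CDK2, had -0.86 and -1.20.

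The CDKs that the Cdkn2 proteins bind, and the D-type cyclins that activate these CDKs, had smaller values. Cdk4 read -0.53 and -0.78, Cdk6 -0.25 and -0.14, and Ccnd3, a D-type cyclin of lymphocytes, -1.01 and -0.72. Ccnd1 was near 0 with 0.06 and 0.16, and the mean of 2 Ccnd2 probes changed sign between the arrays. Cdk2, the main kinase bound by p21CIP1, had -0.32 and -0.05. All of these were under 2-fold on at least 1 array.

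RB proteins and E2F factors stand downstream of the kinases: CDKs phosphorylate RB, which then releases E2F to switch on DNA synthesis genes. On both arrays 9 of the 10 measured were negative and 0 positive, against 33.6% and 29.6% of all genes, and their median was -0.32. E2f1 was the 1 gene at least 2-fold on both (0.721% of all genes on the negative side), with -1.73 and -1.33, and Rb1 read -0.19 and -0.40. On both arrays E2f1 was therefore on the same side as the inhibitor genes Cdkn2b and Cdkn1a.

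Genes of the p53 pathway were mixed. Of 21 measured p53 targets other than Cdkn1a and Gadd45a, 11 were negative and 5 positive on both arrays, against 33.6% and 29.6% of all genes. At least 2-fold were 3 of the 21, all negative, where 0.721% of all genes were so. These were Phlda3 (-1.56 and -1.30), the cyclin G gene Ccng1 (-1.11 and -1.46) and Ei24, an autophagy and growth arrest gene (-1.09 and -1.37). The median of the list was -0.07, against -0.02 over all genes. Among 9 genes of p53 regulation the median was 0.07, and both arrays agreed on a negative sign for 3 and a positive one for 2. Chek1, a DNA damage kinase, was the 1 of these 9 at least 2-fold (0.721% of all genes on the negative side), with -1.30 and -1.16. Mdm2, both a target and the ubiquitin ligase of p53, had -0.56 and -0.50. No value of Trp53 itself was used here.

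Regulators of Cdkn2b, Cdkn1b and the Cdkn2 locus gave no value at least 2-fold on both arrays. The 17 TGF-beta, SMAD and MYC genes had a median of -0.03, and 6 were negative and 3 positive on both. For this and the next 2 lists, the shares over all genes were 33.6% negative and 29.6% positive on both, with a median of -0.02. Tgfb1 itself read -0.59 and -0.61, Tgfbr1 -0.16 and 0.25, Smad3 0.15 and -0.11, and the 2 probes of Tgfbr2 lay near 0. Myc, which represses Cdkn2b and Cdkn1a through MIZ1, had 0.30 and -1.05, so its side differed between the arrays. The 14 genes of FOXO control and p27KIP1 turnover had a median of -0.20, and 8 were negative and 5 positive on both. Foxo1, an activator of Cdkn1b, was positive with 0.39 and 0.69, and Skp2, the ubiquitin ligase subunit that marks p27KIP1 for degradation, negative with -0.73 and -0.32. Foxo3 had 0.26 and 0.09 as the mean of 3 probes, of which 1 was negative on both arrays. The 13 Polycomb genes and opponents had a median of 0.06, and 3 were negative and 4 positive on both. Ezh2, the methyltransferase of the complex that silences the Cdkn2 locus, read -0.76 and -0.41 and Bmi1 -0.07 and 0.16. The highest mean of this list was 1.20, that of Cbx7, with 0.69 on array 1 and 1.71 on array 2.

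Partners of the Gadd45 proteins, stress MAP kinases and stress genes were read as 1 list, called Gadd45 partners below. Its genes lay on both sides of 0. Their median was 0.02 over 16 measured genes, and 6 of these were negative, 4 positive and 0 at least 2-fold on both arrays. Among all genes the negative and positive shares were 33.6% and 29.6%. Map3k4, the kinase that Gadd45 proteins bind, had -0.22 and 0.36, and Mapk14, the gene of p38 alpha, -0.34 and -0.26. Ddit3 and Ppp1r15a, stress genes first named with the Gadd45 genes for induction by growth arrest and DNA damage, were under 2-fold on both arrays. Ddit3 read 0.52 and -0.10 and Ppp1r15a 0.26 and 0.17. Pcna, whose protein p21CIP1 and Gadd45 proteins bind, had -0.11 and -0.51.

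**Figure D3:**
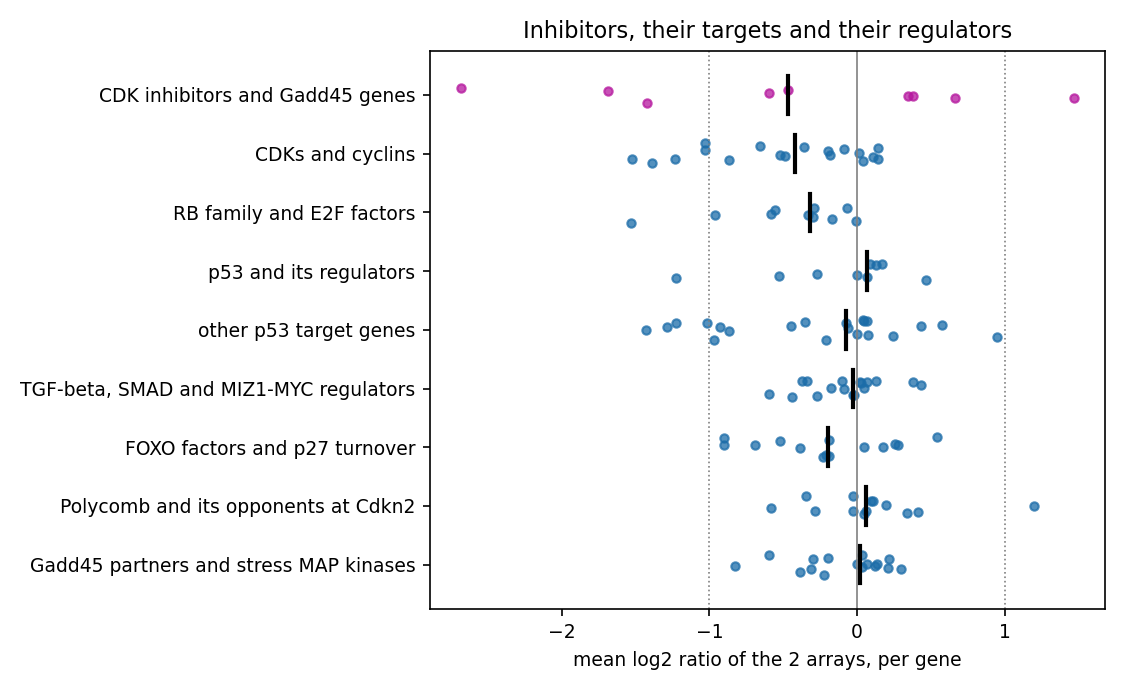
Mean log2 ratio of the 2 arrays (horizontal axis) for each gene of the CDK inhibitor and Gadd45 set, its targets and its regulators, 1 row per list, with a bar at the median and dotted lines at 2-fold. The inhibitor and Gadd45 row spreads from -2.69 to 1.47, while the CDK, cyclin, RB and E2F rows lie mostly left of 0.

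Markers of cell types were read in the same way, as ratios only, since no spot intensities were used here and no level can show whether a marker was present. The 9 CD8 T cell markers had a median of 0.28, and 7 were positive and 0 negative on both arrays. Across the 14150 genes, the arrays agreed on a positive sign for 29.6% and on a negative sign for 33.6%. The median of those genes was -0.02, and these figures are the comparison for each marker list. On the side of Gadd45b lay 7 of 10 B cell markers (1 was negative on both arrays and 0 were at least 2-fold on both), with a median of 0.25. Most of the B cell markers read higher on array 2, as Gadd45b did. These were Cd79b (0.67 and 1.62), Cd72 (0.57 and 2.19), Cd79a (0.31 and 1.06), Blnk (0.30 and 0.87) and Cd22 (0.01 and 0.65). Smaller rises were those of Fcer2a (0.01 and 0.32), Cr2 (-0.10 and 0.17) and Blk (-0.05 and -0.04). Only Ms4a1 (0.11 and 0.08) and Pax5 (0.21 and -0.06) read lower on array 2. List medians on array 1 and array 2 were 0.16 and 0.485 for B cell markers and 0.13 and 0.45 for CD8 T cell markers. Both of these list medians were higher on array 2, where the medians over all genes were -0.02 on array 1 and -0.01 on array 2. On the side of Cdkn2b lay the NK marker Klrb1c (-0.77 and -1.88), while 3 of 6 NK markers were negative and 2 positive on both arrays. The medians of the macrophage and dendritic cell markers (9 measured) and of the CD4 and regulatory T cell markers (5 measured) were -0.09 and 0.07. In the first of these lists Cd74, the class II invariant chain gene that B cells also express, read 0.06 on array 1 and 2.32 on array 2, so it too was higher on array 2. The part of these cells in the values of the CDK inhibitor and Gadd45 genes was not tested.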

How the data were processed

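The deposited values, 1 for each probe on each array, were used as log2 ratios of the 2 channels. Their base, direction and normalization by the authors are not given in the sources used. Of 21919 probes, 15998 had 1 gene symbol in the platform annotation, 288 several and 5633 none. The Entrez ID of 15799 singly named probes was in the RefSeq table, where 0 had another symbol. A gene's value is the mean of its singly named probes with both values (14150 genes). limma 3.58.1 in R 4.3.3 was fitted over 21427 probes as an intercept against 0, with Benjamini-Hochberg adjustment, and tested on simulated data. The number of arrays limits the precision.

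The genes and lists were chosen with earlier results of these data known. Named beside them were list genes at least 2-fold on both arrays, a fixed set whatever its value, the 3 most alike genes of each of 4 leading genes, neighbours in the genome order of the 2-fold genes, and genes nearest the threshold. Cell markers, neighbours in probe number and the genome neighbour of Cdkn2a were named after their values were seen, as were Cbx7 and the NK and B cell examples. Alternatives were median centring, quantile normalization, natural logs, a 1.5-fold rule, single-value probes, the farthest probe of a gene, other spread models and leaving out each array. Lists got no set test.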

Additional observations from a re-analysis of the deposited data

How the results depend on the processing

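Under centring and quantile normalization none of the 9 measured genes changed the sign of its mean, and the largest shift was 0.095. On single arrays Cdkn1b read -0.13 and 0.82 and Cdkn2c -0.97 and 0.04, so their sign changes, and keeping single-value probes adds no gene. The 3 negative 2-fold genes numbered 3 under every alternative run. On the positive side the count of 0 became 1 with quantile normalization, natural logs or a 1.5-fold rule, and 0 to 1 on a single array. Over all probes the counts were 59 positive and 124 negative, against 237 and 340 with natural logs, 373 and 507 at 1.5-fold, and 186 to 483 and 267 to 520 on single arrays. limma's count of 0 became 241 without moderation, where probes with identical values have no spread. It could not be refitted on 1 array, which leaves no residual degree of freedom. List medians were re-read on single arrays. They ran from -0.38 to 0.04 for the CDK inhibitor and Gadd45 genes (a change of sign), -0.415 to -0.337 for CDKs and cyclins, -0.47 to -0.35 for RB and E2F, -0.03 to 0 for p53 regulation, -0.19 to -0.13 for p53 targets, -0.11 to -0.025 for TGF-beta and SMAD, -0.18 to -0.10 for FOXO, 0.07 to 0.17 for Polycomb, -0.075 to -0.015 for Gadd45 partners, 0.13 to 0.45 for CD8 T cell markers, 0.16 to 0.485 for B cell markers and -0.255 to -0.07 for NK markers. They changed sign for macrophage and dendritic cell markers (-0.26 to 0.14) and for CD4 and regulatory T cell markers (-0.09 to 0.15). For p53 regulation and Gadd45 partners neither array's median was positive, although the medians of the gene means were 0.07 and 0.02. The pairing of the stages was kept throughout, because both share each array and each value is their log ratio on that array. No other pairing was possible because the series has 1 group. Without intensities, how signal over background limits each ratio is unknown.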

Other observations

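The nearest measured genes on either side of Cdkn1a, Gadd45g and Gadd45b in the genome were closer to 0 by mean than these genes. On chromosome 17, with 2 annotated genes between it and Cdkn1a, Srsf3, a splicing factor gene, read -0.22 and -0.56. On the other side, past 5 annotated genes, Ppil1, also of the spliceosome, read -0.58 and -0.67, and both lay on the side of Cdkn1a. Around Gadd45g on chromosome 13, with 1 annotated gene between on each side, the semaphorin gene Sema4d read 0.42 and -0.24 and 4921525O09Rik -0.35 and 0.00. Gadd45b on chromosome 10 has measured genes directly on both sides, named after their values were seen. The lamin gene Lmnb2 read -0.60 and -0.65, on the opposite side from Gadd45b, and Gng7, a G protein subunit gene, 0.33 and -0.38.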
